A study of Caenorhabditis elegans with 2 samples.

Results

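The genes ceh-20, ceh-40 and ceh-60 of Caenorhabditis elegans encode homeodomain proteins of the PBC family, which pairs with UNC-62 and Hox proteins on DNA. The gene psa-3 encodes a short Meis-related protein, and whether that protein holds a homeodomain was not examined here. The 4 genes were chosen by name, as the PBC genes and the short Meis-type gene of the TALE families, out of 19973 nuclear protein-coding genes. For each gene, every chromatin immunoprecipitation (ChIP-seq) peak of UNC-62 was described whose summit, the deposited point of strongest signal, lay in the gene body or within 10 kb on either side. Peaks kept at the authors' irreproducible discovery rate (IDR) limit are called thresholded peaks here. All 4 genes had at least 1 of them there, against 15.4% of all genes, and 7 were found in all. The only one at psa-3 lay beyond the gene and was nearest to a start of F39D8.3. A thresholded summit lay at the promoter of ceh-20, ceh-40 and ceh-60, where 2.43% of all genes had one. Of the 7 peaks, 4 were at ceh-60 and its neighbour ets-4. None of the 7 lay in an intron of any of the 4 genes. That is near the background, since 0.631% of all genes had an intronic one.

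The study mapped UNC-62 in whole young adult worms of strain OP600 at 4 days, with males and females pooled, as 1 group with 2 biological replicates. The strain carries the unc119(ed3) allele and the transgene wgIs600, an extra copy of unc-62 fused to TY1 EGFP FLAG, with unc119 beside it. Per the labels the antibody is against unc-62, and elsewhere they give the EGFP fusion as the target, so tagged and native UNC-62 cannot be told apart as the source of a peak. No second condition, tissue or untagged strain was compared here, and a peak from a whole worm does not say in which cells the protein was bound.

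TALE homeodomain proteins carry a short insertion in the homeodomain and bind DNA in pairs or larger assemblies. PBC proteins, which include Extradenticle of Drosophila and the Pbx proteins of mammals, bind beside Hox proteins and beside Meis-class proteins, and UNC-62 is the Meis-class protein of the worm that corresponds to Homothorax. In worms CEH-20 is a partner of Hox proteins in the postembryonic mesoderm and in neuroblasts, CEH-40 overlaps with it in the embryo, and CEH-60 works with UNC-62 in the intestine, where yolk genes are controlled. PSA-3 is a Meis-related protein known for its role in asymmetric division of the T cell in the tail.

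Values are the authors' signal, a score of peak strength that ranks peaks within a list, and ranks count from the strongest. The thresholded list held 843 peaks, 815 of them on nuclear chromosomes, with signal from 31.2 to 514 and a nuclear median of 39.7. The relaxed lists, which hold weak regions by design, had 19023 peaks for the pooled reads, with a median signal of 11.3, 30000 for replicate 1 and 28092 for replicate 2, with medians of 4.71 and 6.82. Signal in replicate 1 was the lower of the pair at most nuclear thresholded peaks, and the scales are not stated to be shared. Read depth is unknown, and with 1 group of 2 replicates no test was possible.

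The DNA under the summits is shown because the genes differ in whether it holds the short words that these protein families are known to bind. Words were sought on both strands within 50 bp of each summit: TGACAG, typical of Meis-class proteins, TGATNNAT, typical of PBC with Hox, TGATTGAC, typical of PBC with Meis, and TGATAA, typical of GATA factors and included for comparison. Sequences are RefSeq genome sequence of WBcel235 (ce11), plus strand, 5′ to 3′, with letters of any matched word in capitals. The ceh-20 window is at chrIII:6979087-6979187, the ceh-40 site at chrX:12320715-12320744, the ceh-60 promoter window at chrX:6530784-6530884, the window upstream of ets-4 at chrX:6518694-6518794 and the window downstream of psa-3 at chrX:15424190-15424290.
ceh-20 promoter: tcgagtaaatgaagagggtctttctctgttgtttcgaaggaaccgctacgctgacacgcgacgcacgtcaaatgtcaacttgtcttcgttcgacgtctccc
ceh-40 5′ UTR: agaattaaTGATAAATGACAGgaaacgtat
ceh-60 promoter: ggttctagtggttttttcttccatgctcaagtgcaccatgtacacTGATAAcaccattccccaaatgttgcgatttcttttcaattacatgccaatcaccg
ceh-60 downstream, ets-4 promoter: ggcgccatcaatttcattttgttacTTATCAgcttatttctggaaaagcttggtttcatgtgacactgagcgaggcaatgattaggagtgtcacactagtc
psa-3 downstream, F39D8.3 exon: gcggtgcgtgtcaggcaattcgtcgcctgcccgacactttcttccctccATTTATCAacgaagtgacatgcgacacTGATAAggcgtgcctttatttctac

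The ceh-20 summit window, under the strongest of the 7 peaks, held none of the words. The ceh-40 site held a run in which TGATAAAT, a match to TGATNNAT that also contains TGATAA, shares its last base with TGACAG. It lay 33 to 62 bp into the gene, in the 5′ UTR, and its TGACAG was centred 18 bp from the summit. The ceh-60 promoter held TGATAA 2 bp from the summit and none of the TALE words. The ets-4 promoter window likewise held TGATAA alone, read on the minus strand, and the psa-3 flank held TGATAAAT on the minus strand 2 bp from the summit and a second TGATAA on the plus strand.

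**Figure D1:**
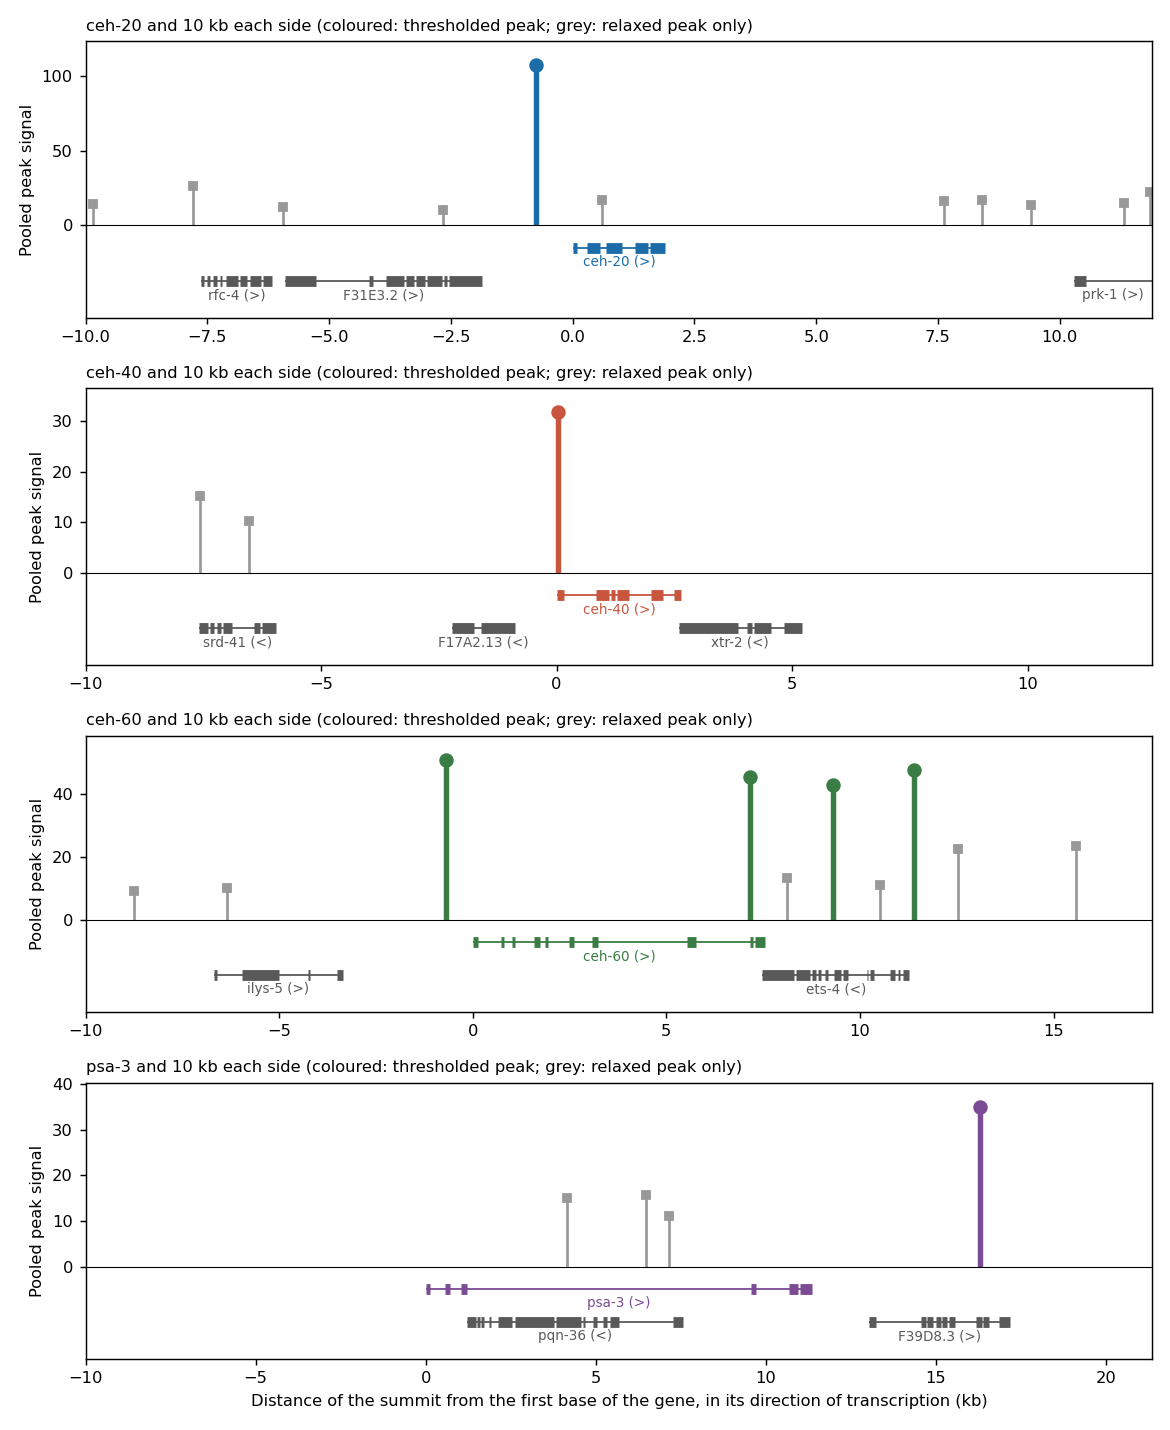
Pooled peak signal (vertical axis, authors' score, on a scale of its own in each panel) against distance of the summit from the first base of the gene, in kb along the direction of transcription, for each gene and 10 kb on either side. Coloured stems are thresholded peaks, grey stems are peaks of the relaxed pooled list alone, and the blocks below are exons; the promoter summits of ceh-20, ceh-40 and ceh-60 stand at or just before the start, and psa-3 has none there.

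At promoters, taken as 1000 bp before and 200 bp after any annotated transcript start, 3 of the 4 genes had a thresholded summit. Of all nuclear protein-coding genes, 486 of 19973 had one, which is 2.43%. In the relaxed pooled list the same 3 genes of 4 had a promoter summit, where 33.2% of all genes had one. Each of the 3 genes had a single pooled promoter peak, and psa-3 was the gene without.

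The ceh-20 gene (WBGene00000443, ce11 chrIII:6979884-6981785, plus strand), whose product is the main PBC partner of Hox proteins in the larva, had its summit in intergenic DNA 747 bp upstream of the start. The peak, chrIII:6978977-6979296, had a signal of 27.3 in replicate 1, 82.6 in replicate 2 and 107 in the pooled reads. It was the strongest of the 7, at 2.70 times the nuclear median, and both replicates placed it high in their own lists, at rank 78 and rank 17. It was 27th of the 843 thresholded peaks, 12th of the nuclear ones and 5th of the 425 at promoters. The replicate ratio, replicate 1 over replicate 2, was 0.331, against a median of 0.534 over nuclear thresholded peaks. The summits of the replicates lay 18 bp apart. The peaks ranked just above and just below it had pno-1, at 109, and tmem-184, at 106, as genes with the nearest start.

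The ceh-40 gene (WBGene00000461, ce11 chrX:12318126-12320777, minus strand), the other PBC gene of the Extradenticle type, had its summit 26 bp inside the gene, in the 5′ UTR. The peak, chrX:12320591-12320910, had a signal of 10.9 in replicate 1, 18.9 in replicate 2 and 31.7 in the pooled reads. It stood close to the lower end of the thresholded list, at rank 799 of 843 and 400th of the 425 promoter peaks, and neither replicate held it among its own 843 strongest, with ranks 1306 and 1080. The replicate ratio was 0.578, and the summits of the replicates were 24 bp apart. The same summit was 906 bp upstream of F17A2.13, which runs the other way, so the peak counted for both promoters. The nearest ranks above and below it belonged to F58G1.7, at 31.8, and C51E3.10, at 31.7.

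The ceh-60 gene (WBGene00017690, ce11 chrX:6522596-6530146, minus strand), whose product controls yolk genes with UNC-62, had its promoter summit 688 bp upstream of the start, in intergenic DNA. The peak, chrX:6530674-6530993, had a signal of 26.6 in replicate 1, 24.8 in replicate 2 and 50.9 in the pooled reads. The replicate ratio was 1.07, and 7.68% of nuclear thresholded peaks had a higher one, so relative to its own list the peak stood higher in replicate 1, with ranks of 86 and 535. The summits were 12 bp apart, and the pooled peak was 204th of 843 and 90th of the 425 promoter peaks. The peaks just above and below it in rank were nearest to anc-1, at 51.0, and ucp-4, at 50.9.

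The psa-3 gene (WBGene00009560, ce11 chrX:15407931-15419298, plus strand) has 4 annotated transcripts with 4 starts, and no thresholded or pooled summit fell in any of their promoter windows. The replicate lists did hold summits there. They had signals of 3.53 and 3.36 in replicate 1 and 4.86 in replicate 2. All 3 were near the lowest signal of their lists, at ranks 25725 and 27789 of 30000 and at rank 27131 of 28092.

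**Figure D2:**
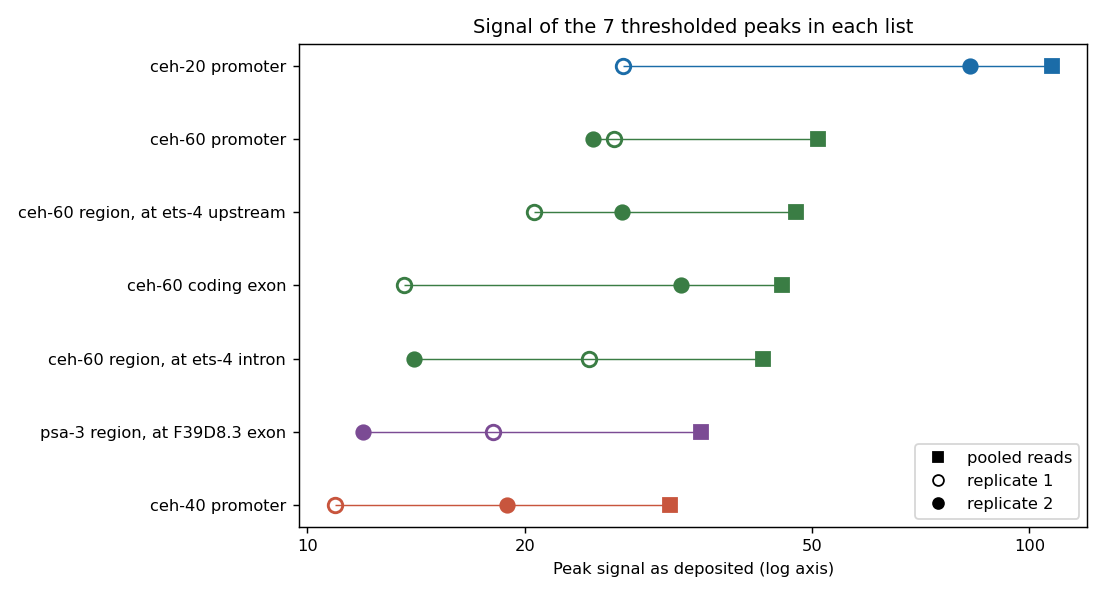
Signal (horizontal axis, authors' score, log axis) of each of the 7 thresholded peaks in replicate 1, replicate 2 and the pooled reads, 1 point per list, with 1 row per peak. The ceh-20 promoter peak reaches 107 in the pooled reads and the ceh-40 peak is lowest of the 7 in the pooled reads at 31.7; no error bar is shown because each point is 1 list.

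Counted over the gene body and flanks, promoters included, all 4 genes had a thresholded summit, against 15.4% of all genes. For ceh-20 and ceh-40 this was the promoter peak alone. For psa-3 it was a single peak beyond the gene. At ceh-60 there were 4, and 29 genes, or 0.145% of all, had 4 or more, ceh-60 included. Another of those 29 was ets-4, which lies next to ceh-60 and shares the same 4 peaks. The count is thus of a locus and not of 1 gene. With the 843 strongest peaks of a single replicate in place of the thresholded list, 2 of the 4 genes had a summit without replicate 1, with 1 at ceh-20 and 3 at ceh-60. Without replicate 2, 3 of the 4 genes had one, with 2 in the ceh-20 region, 4 at ceh-60 and 1 at psa-3. The second in the ceh-20 region, at rank 672 of replicate 1, lay 72 bp upstream of rfc-4 and 7703 bp upstream of ceh-20. The ceh-40 region had none either way. No share of all genes is given for these single-replicate counts, so they are not read as a trait of the 4 genes.

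The ets-4 gene (ce11 chrX:6518883-6522667, plus strand) encodes an ETS transcription factor. It runs toward ceh-60 from the other side, and their 3′ ends overlap. Nearest to its start, 139 bp upstream, was the summit of chrX:6518584-6518903, which had a signal of 20.6 in replicate 1, 27.3 in replicate 2 and 47.4 in the pooled reads. The second, chrX:6520688-6521007, was in an intron of ets-4, with 24.6 in replicate 1, 14.1 in replicate 2 and 42.8 in the pooled reads. The third peak, chrX:6522825-6523144, had its summit in ceh-60, with 13.6 in replicate 1, 33.0 in replicate 2 and 45.5 in the pooled reads. The pooled signals of these 3 and of the ceh-60 promoter peak thus lay close together, from 42.8 to 50.9, while the replicates differed in which of them was stronger. The summits spanned 12090 bp, with gaps of 2104, 2137 and 7849 bp. The nearest start was that of ets-4 for 3 of the 4 and that of ceh-60 for the promoter peak only.

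The summit within ceh-60 lay in exon 9 of 10, a coding exon of 71 bp, 1 bp from its edge and 389 bp before the end of the gene. The 320 bp of the peak covered 110 bp of exon and 210 bp of intron, so its place in an exon rests on the exact summit. The summits of both replicates, 20 bp apart, lay in the same exon. The introns of ceh-60, 6220 bp in sum, held no pooled summit, and each replicate list had 1 weak intronic summit, of 4.30 in replicate 1 and 7.40 in replicate 2.

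The psa-3 flank peak, chrX:15424080-15424399, lay 4942 bp past the end of the gene, in a coding exon of F39D8.3 and 73 bp upstream of the start of a shorter F39D8.3 transcript. Its signal was 18.1 in replicate 1, 11.9 in replicate 2 and 35.0 in the pooled reads. It was 620th of 843, and replicate 2 held it at rank 3251, far below its rank of 302 in replicate 1. By nearest start it belonged to F39D8.3, so the lists gave psa-3 no thresholded peak of its own.

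No thresholded summit lay in an intron of any of the 4 genes outside the promoter windows, where 0.631% of all genes had one. With so low a share, none among 4 genes is near the background. In the relaxed pooled list 2 of the 4 genes had intronic summits, ceh-20 and psa-3, against 16.95% of all genes. The ceh-20 summit, 595 bp into the gene, had a pooled signal of 17.3. The overlapping replicate 1 peak, at 8.36, had its summit in the next coding exon, and that of replicate 2, at 10.7, was intronic. The 3 psa-3 summits had pooled signals of 15.1, 15.7 and 11.1, and all 3 were nearest to the start of pqn-36, a gene on the other strand inside psa-3. Over the 28 pooled summits of the 4 genes, the median signal was 50.9 for the 3 at promoters, 15.4 for the 4 in introns and 16.0 for all 28, which was not tested. Over all nuclear pooled peaks the medians were 12.0 at promoters and 10.9 in introns, and over all nuclear thresholded peaks 38.7 and 41.1, so signal in the lists as a whole differed little by place.

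**Figure D3:**
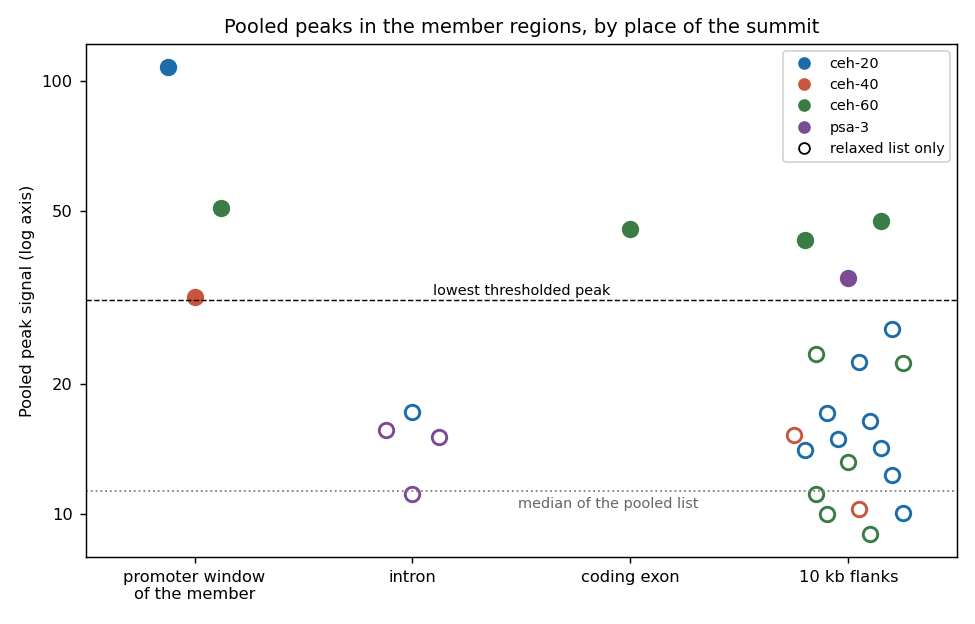
Pooled signal (vertical axis, authors' score, log axis) of the 28 pooled summits in the 4 gene regions by place, 1 point per peak, coloured by gene, with filled points for thresholded peaks. The 4 intronic peaks lie between 11.1 and 17.3, below the lowest thresholded signal of 31.2, and the promoter peaks lie between 31.7 and 107.

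The relaxed pooled list put 11 summits at ceh-20, 10 at ceh-60, 4 at psa-3 and 3 at ceh-40, and the median gene had 4. Of all genes, 3.14% had as many as ceh-20 or more and 5.12% as many as ceh-60 or more. Both numbers depend on neighbours and gene length, and among genes within 25% of the same length the shares were 1.72% for ceh-20 and 8.68% for ceh-60. The shares for ceh-40 and psa-3, 73.7% and 76.9% by the same count, put them on the low side of genes of their size.

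Many of the 21 pooled summits that were not thresholded sat by other genes, which are named here after their values were seen. The strongest, at 26.7, lay 165 bp upstream of rfc-4 and 7796 bp upstream of ceh-20, with 13.7 in replicate 1 and 14.0 in replicate 2. At the far end of the ceh-20 region 5 summits of 14.1 to 22.5 lay in or upstream of prk-1. Beyond ets-4 were summits of 22.3 and 23.5, and the first of these overlapped a replicate 2 peak of 19.9 and no replicate 1 peak. By nearest start, 5 of the 28 pooled summits belonged to one of the 4 genes, as did 12 of 37 in replicate 1 and 8 of 38 in replicate 2. The like share for regions of other genes is not given, so these counts are not read as a trait of the 4 genes.

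The 10 kb limit did not cut through a cluster of thresholded peaks. Inside it the farthest summits were 747 bp from the ceh-20 gene, 3852 bp from ceh-60 and 4942 bp from psa-3, and the ceh-40 summit was within the gene. Outside it the nearest were 84538 bp from ceh-20, at 61.9, 83504 bp from ceh-40, at 35.5, 73337 bp from ceh-60, at 48.3, and 41942 bp from psa-3, at 35.4.

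Both replicates held a peak at all 7 places, with summits at most 80 bp apart. The thresholded list was itself made by comparing the replicate lists, and 807 of its 815 nuclear peaks had a peak in both. A peak in both replicates was thus nearly given by how the 7 were chosen. Of the 7, 6 were among the 843 strongest peaks of replicate 1, 4 among those of replicate 2, and 4 in both. No share of all thresholded peaks is given beside these counts, so they are not read as a trait of these genes. Signal was higher in replicate 1 at 3 of the 7 peaks, where 74 of 807 nuclear thresholded peaks, or 9.17%, had that order. These were the ceh-60 promoter at a ratio of 1.07, the ets-4 intron at 1.75 and the psa-3 flank at 1.51. Only 4 of the 807 peaks had a higher ratio than the ets-4 intron and 15 a higher ratio than the psa-3 flank. The median ratio was 0.753 for the 7 and 0.534 for the 807, whose 5th and 95th percentiles were 0.208 and 1.21. At the other end was ceh-20, and 81.7% of the 807 peaks had a higher ratio than its own.

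**Figure D4:**
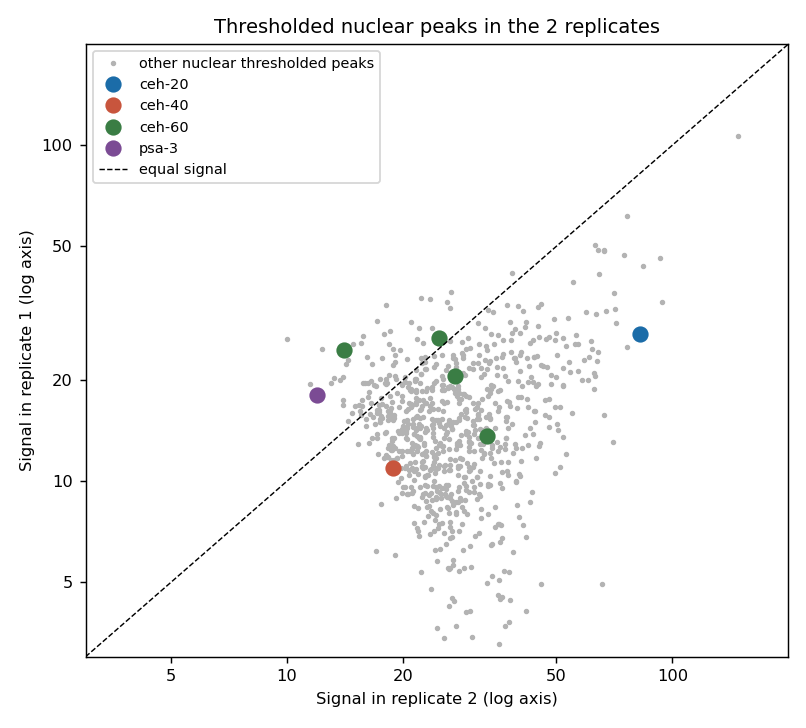
Signal in replicate 1 (vertical axis) against signal in replicate 2 (horizontal axis; authors' score, log axes), 1 point per nuclear thresholded peak found in both replicates, with the 7 peaks of the 4 genes in colour. The line marks equal signal; 3 of the 7 coloured points lie above it, as do 74 of all 807 points.

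Among the words, TGACAG was within 50 bp of the summit in 1 of the 7 peaks, that of ceh-40, and in 22.0% of the 815 nuclear thresholded peaks. TGATNNAT was in 3 of the 7, at ceh-40, the ets-4 intron and the psa-3 flank, and in 8.83% of the nuclear peaks. TGATTGAC was in none of the 7 and in 5.03%, and TGATAA was in 4 of the 7 and in 28.5%. Of the 101 bases just upstream of each of the 19973 gene starts, 2.96% held TGACAG, 7.94% TGATNNAT, 0.270% TGATTGAC and 12.6% TGATAA. TGATNNAT and TGATAA are not separate at ceh-40 and psa-3, where TGATAAAT matches both. A match describes letters in the window, and the absence of one at ceh-20 and at the ceh-60 exon summit says only that the words are not within 50 bp there. Widening the window to 100 bp on each side or to the whole peak left TGACAG at 1 of the 7. The shares of the 815 nuclear thresholded peaks then rose to 28.7% and 32.3%.

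The joined word of ceh-40, shown above, was looked for elsewhere after it had been seen. It was within 50 bp of 1 of the 815 nuclear thresholded summits, that of ceh-40 itself, of 2 of 18993 nuclear pooled summits, and of none of the 19973 windows upstream of starts. The count was chosen on this site and is a description of how seldom the exact arrangement was met.

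By the same counts, 8 other TALE and Hox genes were described. Only unc-62 of the 8 had a thresholded promoter summit, and there were 3, with the strongest at 79.1. The unc-62 region held 6 thresholded summits, up to 127, and the tagged transgene carries unc-62 sequence, so peaks there cannot be told apart from extra copies of the gene. Thresholded summits were also in the regions of irx-1, an Iroquois-type gene, with 2 of up to 43.1, and of ceh-13, the labial-type Hox gene, with 1 of 33.8. No thresholded summit was in the region of egl-5, lin-39, mab-5, nob-1 or php-3, Hox genes of the mid-body and tail. Relaxed pooled promoter summits were 25.7 at ceh-13, 10.2 at lin-39 and 9.92 at mab-5. With 2.43% of all genes having a thresholded promoter summit and 15.4% one in the region, counts of 0 among so few Hox genes are near the background.

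A further list held 6 targets or partners of the same proteins. The yolk protein genes vit-2 and vit-6, both targets of UNC-62 and CEH-60 in the intestine, had thresholded promoter summits of 63.1 and 73.0, at ranks 115 and 72. Both were above the ceh-60 promoter peak and below that of ceh-20. The zinc finger gene pqm-1, the Twist gene hlh-8, the growth factor gene egl-17 and the GATA gene egl-18 had relaxed promoter summits alone, of 8.63, 12.0, 11.2 and 10.3. The pooled list had a lowest signal of 8.57 and a median of 11.3, and pqm-1 was at rank 18702 of 19023. Such relaxed promoter summits were found at 33.2% of all genes. The pqm-1 region also held a thresholded summit, of 32.4.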

How the data were processed

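The ce11 lists of both replicates were used, with coordinates given 1-based. A control entered every list, per the README files deposited: a replicate list was made from 1 alignment, the pooled list from 2, and the thresholded list (optimal IDR) by comparison of those 3. Aligner and peak caller: not given in the sources used here. Signal values are those of the authors' lists, as deposited, and rank peaks within a list. The −log10 q-value deposited by the authors was at its limit of 3.40 in all 843 thresholded peaks and ranked nothing there.

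Genes were those of Ensembl release 115 for WBcel235. Where windows of genes overlapped, a summit counted once per gene. A replicate's value at a thresholded peak was that of its strongest peak overlapping by at least 1 bp. Gene and word counts were tested on planted summits and words. Python 3.11.15, numpy 2.4.6, pandas 2.3.3 and matplotlib 3.10.9 were used.

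The genes, lists, windows and words were chosen with earlier results of these data known, so no count is independent support. Named genes were the 4 genes, 8 TALE or Hox genes, 6 targets or partners, the gene with the nearest start to each thresholded peak, and those at peaks ranked next to each promoter peak. F17A2.13, rfc-4, prk-1 and pqn-36 were named after their values were seen.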

Additional observations from a re-analysis of the deposited data

How the results depend on the processing

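With 1 group and 2 replicates, only counts and signals could be followed, and unknown depth limits every signal. Of 32 alternatives, 23 moved a value by no more than a ratio of 1.5, and 9 moved it further. Counts and signals have no direction to reverse. The limit of 1.5 let pass a fall from 3 genes with a promoter summit to 2. With promoters cut to 500 bp upstream and 100 bp downstream, 1 gene had a thresholded promoter summit, ceh-40, where 3 had one before, since the ceh-20 and ceh-60 summits lie further upstream. Gene bodies alone held 2 thresholded summits, and flanks of 5 kb held 15 pooled summits in place of 28. With the 843 strongest peaks of a single replicate, the count of 7 became 4 to 7, the lower value without replicate 1, when ceh-40 and psa-3 had none. The 7 without replicate 2 were another set, with 2 in the ceh-20 region, 1 of them by rfc-4, and none at ceh-40. The number of genes with a promoter summit was 2 either way, with ceh-40 lost. These counts also stand without a share of all genes beside them. Left with 1 replicate, the promoter signal was 27.3 to 82.6 for ceh-20, 10.9 to 18.9 for ceh-40 and 24.8 to 26.6 for ceh-60, against pooled values of 107, 31.7 and 50.9, on scales not stated to be shared. The signals in single replicates and TGACAG at replicate summits were chosen after seeing the data. The replicate ratio needs both replicates and could not be had without one. No paired analysis was possible because there is only 1 group.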
